A study of Solanum lycopersicum with 12 samples.

Results

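The comparison described here is that of roots of tomato plants (Solanum lycopersicum) after a foliar spray of PSI-475 with roots of plants sprayed with water, both under salt. Its members are the 6 root libraries of the 12 in the series, chosen by the tissue and treatment in the labels, with 3 libraries from PSI-475 plants and 3 from water-sprayed plants. PSI-475 is a plant biostimulant prepared from the brown seaweed Ascophyllum nodosum. All plants were labelled wild type, and the labels name no cultivar. The PSI-475 group was sprayed at 2.5 mL per L at an age of 65 days and again 27 days after salt irrigation began, and the control group received water at the same times. Irrigation with 50 mM NaCl, at 5.8 dS per m, started 1 day after the first spray in both groups, so no unsalted root is part of the comparison. Roots were collected at 127 days, 2 h after the light period ended, and RNA was taken from 30 mg of ground tissue. The spray was given to the shoot, and the root had no direct contact that the labels describe. The labels do not say whether libraries of a group came from separate plants, so the p-values reflect library-to-library variation that could be technical.

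Roots under salinity take up water and nutrients against a lowered water potential, limit the entry of sodium into the xylem, and adjust their growth, cell walls and ion transport. Biostimulants of seaweed origin are studied for their effects on such responses, and signals from a sprayed shoot can reach the root through the phloem. Salt is also known to change hormone signalling in roots, with abscisic acid and ethylene as classic examples.

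Values were FPKM, fragments corrected for the length of the locus and the depth of the library, for 35976 loci known by identifier. No source used here pairs these identifiers with a gene name or a function: 0 of the 35976 were found in the reference gene table. The 45 lists of genes by function and cell type that had been drawn up for this comparison were therefore not evaluated, and the labelled tissue could not be checked against marker genes. Loci are described by level, position in the identifier order, length and level in leaf, and 4 of them by identifier. Of all loci, 18277 had a mean of at least 1 FPKM over the 6 root libraries and were tested. Root libraries held 17108347 to 20595008 fragments. For well-covered loci (200 fragments or more on average), the coefficient of variation had a median of 4.33% over the water libraries and 5.69% over the PSI-475 libraries.

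The root transcriptome differed widely between the sprays. After PSI-475, 9511 loci were higher and 4486 were lower (limma, Benjamini-Hochberg adjusted p under 0.05), which are 52.0% and 24.5% of the loci tested, or 76.6% in all. The median log2 change over all tested loci, on the log2(FPKM + 1) scale, was 0.28. When libraries were scaled by median-of-ratios factors that median was 0.0035, and 6363 loci were higher (34.8%) and 6527 lower (35.7%). The excess of rises over falls therefore depended on the scaling, and directions below are given under both where they differ. In bulk tissue, fewer cells of a type and less RNA per cell cannot be told apart.

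Among the largest changes on the log2(FPKM + 1) scale falls outnumbered rises under both scalings. At least 4-fold, 554 loci fell (3.03% of those tested) and 248 rose (1.36%). With median-of-ratios scaling 781 fell and 126 rose at least 4-fold, and every locus of the first 802 was still called in the same direction. The factors were 0.9082 to 0.9153 for water libraries and 1.099 to 1.122 for PSI-475 libraries. They lower nearly every log2 change by a similar small amount. Changes of this size could hardly turn, and falls could only gain on rises, so this agreement is no check. At least 8-fold, 173 fell (0.947%) and 20 rose (0.109%). This scale holds down changes from near 0, and the 4-fold and 8-fold counts were not made with another pseudocount. At least 2-fold, 2251 rose (12.3%) and 1856 fell (10.2%) as deposited, but 1298 rose and 2494 fell with median-of-ratios scaling, so the balance at that size turned with the scaling. With a pseudocount of 0.1 and no such scaling, 3084 rose and 2167 fell at least 2-fold.

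**Figure D1:**
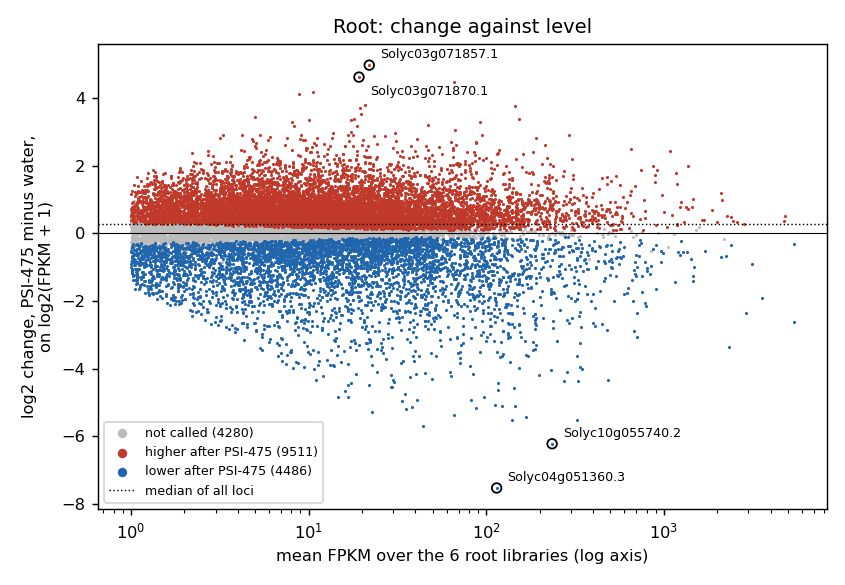
Each point is 1 of the 18277 tested root loci, with its mean FPKM over the 6 root libraries on a log x axis and its log2 change, PSI-475 minus water, on the y axis. Falls reach -7.53 and rises 4.98, and the 4 circled loci are the 2 steepest in each direction.

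The fragments lost by falling loci made up a large part of the water-sprayed root. The 1856 loci that fell at least 2-fold held 26.2%, 26.2% and 26.2% of the fragments in the 3 water libraries and 7.41%, 7.21% and 6.88% in the PSI-475 libraries. The 2251 that rose at least 2-fold held 5.61%, 5.62% and 5.59% against 15.6%, 15.9% and 16.1%. These shares describe sets chosen by the same contrast and were not tested. The 554 loci that fell at least 4-fold alone went from 11.3% ± 0.0227 to 1.64% ± 0.104 of the fragments (SD, n = 3 libraries each). Their median level went from 43.7 to 4.88 FPKM, whereas the median locus among the 248 4-fold rises went from 3.65 to 25.2 FPKM. For comparison, the median over all tested loci was 9.15 FPKM in the water-sprayed root. These levels took part in the choice of the sets.

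A pair of neighbouring loci gave the steepest rises on the log2(FPKM + 1) scale, which holds down changes from near 0. With a pseudocount of 0.1 they ranked 2 and 6 among called rises whose groups did not overlap and that held at least 10 fragments on average in either group. Solyc03g071857.1, with a recovered length of 933 bases, stood at 0.689, 0.349 and 0.173 FPKM in the water roots and at 33.6, 46.3 and 50.7 FPKM in the PSI-475 roots. It was close to absent in every water root and moderately abundant in every PSI-475 root, so the groups did not overlap, as was the case for 79.2% of tested loci. The rise was 4.98 on the log2 scale (SE 0.18, adjusted p = 8.8e-08 in limma). The water libraries held 20 of its fragments in all and the PSI-475 libraries 2274, which is 111-fold per assigned fragment (95% exact binomial interval 71.5 to 182, for counting error only).

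Solyc03g071870.1, of 519 bases, is the next locus on chromosome 3 in identifier order, with no other locus of the table between them. It stood at 0.676, 0.314 and 0.726 FPKM in the water roots and at 36.1, 33.2 and 44.4 FPKM in the PSI-475 roots. Again every PSI-475 library was far above every water library, and the rise was 4.63 on the log2 scale (SE 0.14, adjusted p = 3.9e-08 in limma). Its fragments numbered 16 against 1104, 67.2-fold per assigned fragment (95% exact binomial interval 41.2 to 118). Both loci were near 0 in leaf, at 0 to 0.385 FPKM and 0 to 0.609 FPKM over the 6 leaf libraries. Reads shared between overlapping or near-identical loci could not be told apart.

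Solyc04g051360.3, of 1173 bases, had the steepest fall, with either pseudocount. It stood at 230.8, 228.4 and 227.4 FPKM in the water roots and at 0.143, 0.149 and 0.455 FPKM in the PSI-475 roots. An abundant transcript with nearly equal values in the 3 water libraries was thus almost undetected in the others. The fall was -7.53 on the log2 scale (SE 0.096, adjusted p = 1.11e-09 in limma). Only 17 fragments were left in the PSI-475 libraries against 14526, 878-fold fewer per assigned fragment (95% exact binomial interval 548 to 1510). The 3 PSI-475 libraries held only 3, 3 and 11 of its fragments, so the size of this fold is uncertain. The interval covers counting error only and leaves out the spread between libraries. In leaf it was low under both sprays, at 0.568 to 1.77 FPKM.

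Solyc10g055740.2, of 1711 bases, was next on the log2(FPKM + 1) scale and ranked 10 among the falls with a pseudocount of 0.1. It stood at 463.5, 461.9 and 470.1 FPKM in the water roots and at 5.47, 5.80 and 4.51 FPKM in the PSI-475 roots. The fall was -6.22 on the log2 scale (SE 0.075, adjusted p = 8.91e-10 in limma), and every PSI-475 value lay far below every water value. Fragments went from 43080 to 496, 89.2-fold fewer per assigned fragment (95% exact binomial interval 81.7 to 97.7). It too was low in leaf, at 0.626 to 1.81 FPKM.

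**Figure D2:**
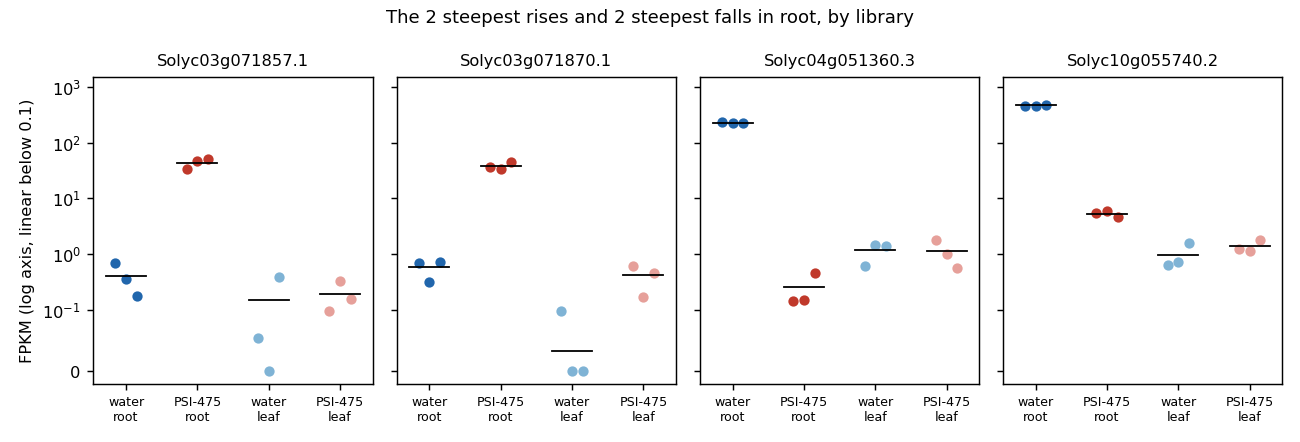
FPKM of the 4 loci in each of the 12 libraries, on a log axis that is linear below 0.1, with a line at each group mean. In root the PSI-475 and water libraries lie apart at all 4 loci, and both leaf groups lie below 2 FPKM.

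The most abundant transcripts of the root changed places. Of the 10 loci with the highest mean FPKM in water roots, from 2685 to 9345 FPKM, 3 were also among the 10 highest in PSI-475 roots. In the PSI-475 roots those 10 loci stood at 414.5 to 5649 FPKM, with 8 called lower and 2 higher. The 10 highest in PSI-475 roots, at 2689 to 5649 FPKM, stood at 1273 to 5965 FPKM in water roots, with 9 called higher and 1 lower. Each set was chosen by its level in a single group, which favours these directions. Of the 100 highest in each group 61 were shared, and of the 500 highest 329. PSI-475 roots were also less dominated by abundant loci. The 1000 most abundant loci of each library held 50.3%, 50.3% and 50.2% of the fragments in water roots and 46.1%, 46.0% and 46.4% in PSI-475 roots. All water values exceeded all PSI-475 values, for an exact permutation p of 0.1 (2-sided), below which 3 against 3 libraries cannot go.

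Falls of at least 2-fold were more frequent among loci above 30 FPKM, and rises of that size were not. With loci classed by their mean over all 6 root libraries, 7.88% of the 3492 loci at 1 to 3 FPKM fell at least 2-fold, 8.62% of the 5474 at 3 to 10, and 8.43% of the 5161 at 10 to 30. The share was 13.5% of the 2921 loci at 30 to 100 FPKM, 23.3% of the 898 at 100 to 300, and 21.1% of the 331 above 300. The shares that rose at least 2-fold stayed between 9.62% and 13.9% in all 6 classes. Loci with a low mean cannot change far in either direction on the log2(FPKM + 1) scale, which limits both falls and rises in the lowest class. The median log2 change was 0.33 at 3 to 10 FPKM and 0.031 above 300 FPKM as deposited, and 0.062 and -0.28 with median-of-ratios scaling. The abundant class thus lay below the median of all loci under both scalings. That scaling moves nearly all loci by a similar amount and could hardly alter this order, so the agreement is no check.

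**Figure D3:**
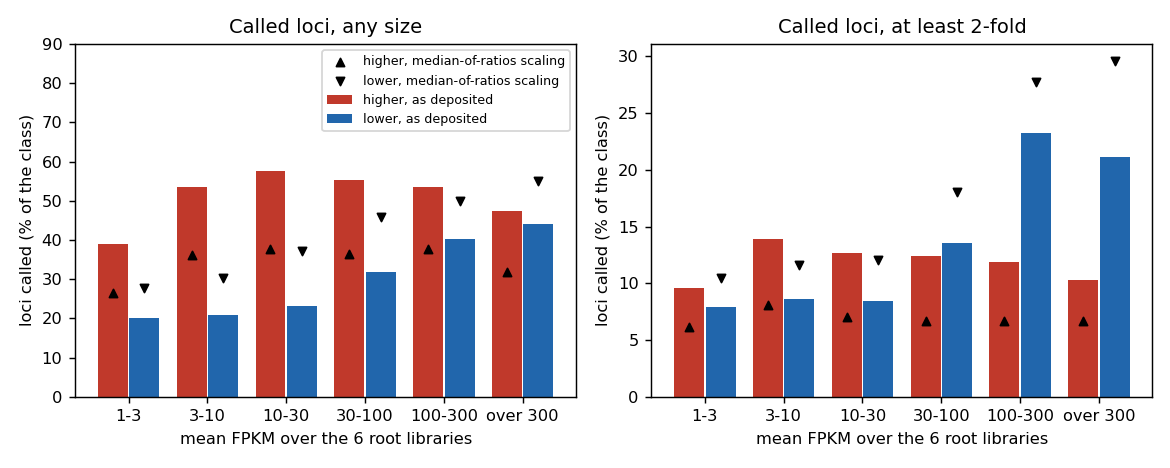
Share of the loci in each class of mean root FPKM that were called higher (red) or lower (blue) after PSI-475, at any size on the left and at least 2-fold on the right. Bars are the values as deposited and triangles those with median-of-ratios scaling. Under both scalings the 2-fold falls are most frequent above 100 FPKM.

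Loci scarcely expressed in leaf changed at least 2-fold in root more often, whereas calls of any size were most frequent in the lowest and the highest leaf class. Leaf libraries take no part in the root contrast, but all loci first had to pass the root filter. A locus low in root can pass it through the group where it is high, which favours large changes among such loci. Of the 594 tested root loci with a mean under 0.1 FPKM over the 6 leaf libraries, 37.0% rose and 22.9% fell at least 2-fold. Of the 9317 loci with at least 10 FPKM in leaf, 12.5% rose and 7.70% fell at least 2-fold. In between, 14.2% of the 1411 loci at 0.1 to 1 FPKM in leaf rose and 20.9% fell at least 2-fold, and of the 6955 at 1 to 10 FPKM 9.56% rose and 10.2% fell. Calls of any size covered 83.2%, 68.7%, 69.0% and 83.0% of the 4 classes from the lowest leaf level to the highest, beside 76.6% of all loci. With median-of-ratios scaling the leaf-silent group still had more rises than falls of that size, at 181 against 153, and the group at 0.1 to 1 FPKM had 147 against 363.

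Neighbouring loci tended to change together in root. Identifiers of the tomato locus scheme carry a chromosome number and a running number, and 17555 tested loci on chromosomes 1 to 12 were put in that order. The log2 changes of adjacent tested loci had a Pearson correlation of 0.205 over 17543 pairs. It was 0.0715 at 2 steps, 0.0426 at 3, 0.0141 at 5 and 0.00013 at 50. These correlations are across loci of the same 6 libraries and are given as a description. The value for adjacent loci was 0.205 with median-of-ratios scaling too, which moves nearly all loci by a similar amount and could hardly alter it.

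Seen from the called loci, 23.7% of the neighbours of a locus that fell at least 2-fold had also fallen at least 2-fold, where 10.1% of the ordered loci had. Of the neighbours of a locus that rose at least 2-fold, 22.1% had also risen, against 12.4% of the ordered loci. Neighbours of the opposite kind were scarcer, at 8.43% rises beside a fall and 6.89% falls beside a rise. At 5 steps the shares were 10.6% for falls beside falls and 13.3% for rises beside rises. Tandem copies, overlapping loci and reads that run from one locus into the next can each make neighbours alike, and their part in the result was not tested.

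Of 1773 ordered loci that fell at least 2-fold, 289 lay in 81 unbroken runs of 3 or more tested neighbours that all fell at least 2-fold. Of 2171 that rose at least 2-fold, 300 lay in 83 such runs. There were 10 falling runs of at least 5 loci, of which 5 were on chromosome 2, and 8 rising runs of at least 5, of which 3 were on chromosome 7. All 59 loci of the long falling runs stayed at least 2-fold lower with median-of-ratios scaling, as they had to, since it lowers nearly every log2 change. All 50 loci of the long rising runs were still called higher with it, and 33 of them still at least 2-fold. The runs were found in these data and carry no test.

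The longest run comprised 11 tested loci on chromosome 7, within a stretch of 15 loci of the table, and all of them rose. Its summed level was 82.4, 85.95 and 86.9 FPKM in the water roots and 332.9, 330.2 and 337.4 FPKM in the PSI-475 roots. The log2 changes of its loci ran from 1.28 to 2.82. Only 1 of the 11 reached the level for testing in leaf, and it was not called there. Other long rising runs did change in leaf: in the next longest, of 7 loci and also on chromosome 7, 5 rose and 1 fell there, with log2 changes from -0.86 to 2.50. Over the 8 long rising runs 35 loci were tested in leaf, of which 12 rose and 3 fell, where 13.5% and 18.8% of all 18405 loci tested in leaf did. Of 27 in the long falling runs, 2 rose and 6 fell in leaf. In the interaction test across the 12 libraries (limma, adjusted p under 0.05), the effect in root exceeded that in leaf at all 11 loci of the longest run, as at 46.6% of the 19324 loci in that test (28.3% with median-of-ratios scaling).

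The longest falling run comprised 7 tested loci on chromosome 4, within a stretch of 12 loci of the table. Its summed level was 430.2, 418.3 and 432.7 FPKM in the water roots and 112.2, 118.6 and 99.4 FPKM in the PSI-475 roots, with log2 changes from -4.15 to -1.14. In leaf 3 of the 7 were tested, with log2 changes from -0.41 to 0.10 that missed the threshold. In the interaction test 6 of the 7 had enough level to be included, and all 6 had a lower effect in root, as 20.8% of all loci in that test had (30.9% with median-of-ratios scaling). Mean leaf levels in this run went down to 0.0124 FPKM, and loci near 0 in leaf can hardly fall there, which favours such a result.

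Chromosome 2 carried a concentration of falls. Among its 1941 tested loci 15.1% fell at least 2-fold and 4.89% at least 4-fold, where chromosomes 1 and 3 to 12 had 7.28% to 10.9% and 1.95% to 3.85%. The 13 tested loci numbered under chromosome 0 were too few to compare. The chromosome's median log2 change was 0.15, and -0.12 with median-of-ratios scaling, which differ from the medians of all loci by -0.13 and -0.12. The scaling could hardly alter that difference, since it moves nearly all loci by a similar amount. A single stretch of 50 tested loci held 11 loci that fell at least 4-fold. A pair of falling runs of 6 loci each lay within it, a few loci apart. The first had summed levels of 67.1, 57.0 and 61.1 FPKM in water roots and 3.46, 3.16 and 4.09 FPKM in PSI-475 roots. The second had 47.9, 45.5 and 48.8 FPKM against 6.54, 7.28 and 7.12 FPKM. In leaf the loci of the first run stood at 0.00978 to 0.601 FPKM and those of the second at 0.187 to 1.20 FPKM.

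**Figure D4:**
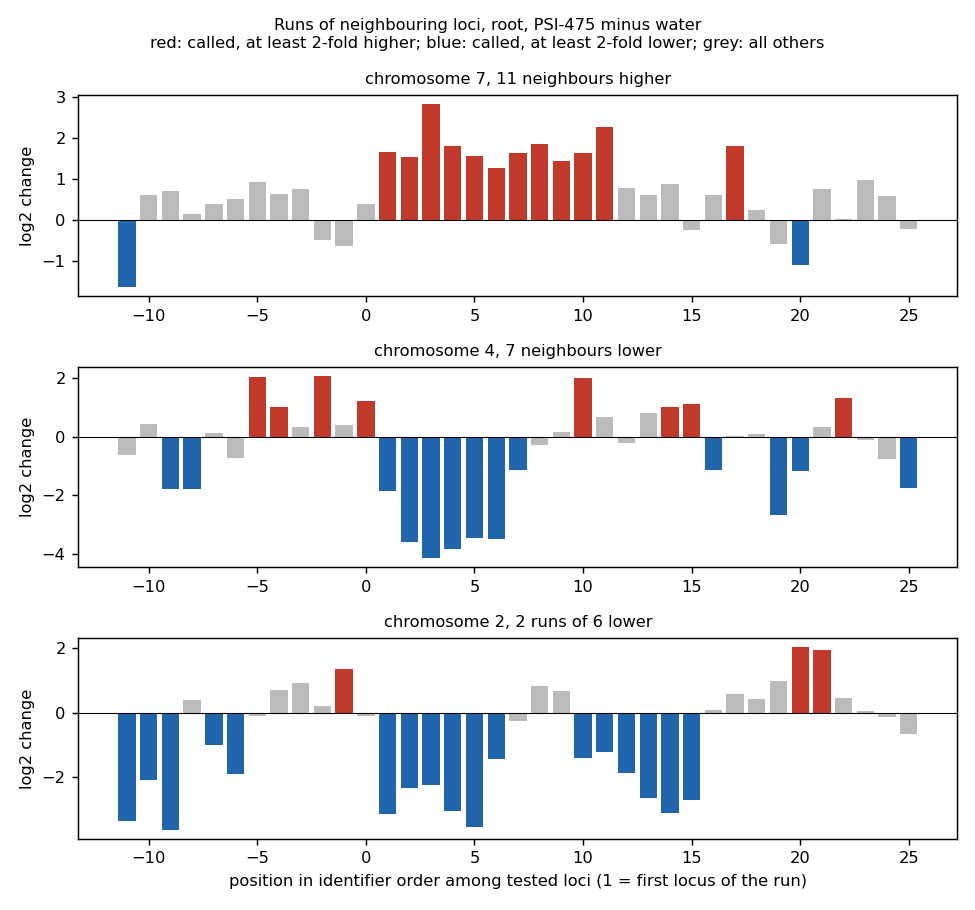
Log2 change in root, PSI-475 minus water, of consecutive tested loci in identifier order around 3 stretches, with position 1 at the first locus of each run. Red bars were called at least 2-fold higher, blue bars at least 2-fold lower, and grey bars are all other loci. The unbroken blocks of one colour are the runs of 11, 7, 6 and 6 loci.

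Loci that changed at least 4-fold in root were called in young leaf more often than the loci tested there as a whole. Among those called in leaf, rises outnumbered falls both for the loci that rose in root and for those that fell. Of the 572 tested in leaf 48.1% were called there, beside 32.3% of all loci tested in leaf and 34.0% of the loci called in root at any size. Their median leaf change in either direction was 0.388 on the log2 scale, beside 0.236 over all loci tested in leaf. Of the 248 loci that rose at least 4-fold in root, 163 were tested in leaf. There 50 rose (30.7%) and 34 fell (20.9%), with a median leaf log2 change of 0.036. Of the 554 that fell at least 4-fold, 409 were tested in leaf. There 54 fell (13.2%) and 137 rose (33.5%), with a median of 0.158. Over all loci tested in leaf 13.5% rose and 18.8% fell, so leaf rises exceeded that share in both sets. Leaf falls were nearer to it, above in the first set and below in the second. In the interaction test 242 of the 248 had a higher effect in root, beside 46.6% of all loci in that test. All 551 of the 554 that entered that test had a lower effect in root, beside 20.8% of all loci. With median-of-ratios scaling those shares of all loci were 28.3% and 30.9%. A change of at least 4-fold in root was the basis of the choice, which favours a difference in effect, and loci near 0 in leaf could hardly fall there. Loci at least 4-fold changed were also more often below 1 FPKM in leaf, at 85 of the 248 rises and 145 of the 554 falls, beside 2005 of the 18277 loci tested.

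**Figure D5:**
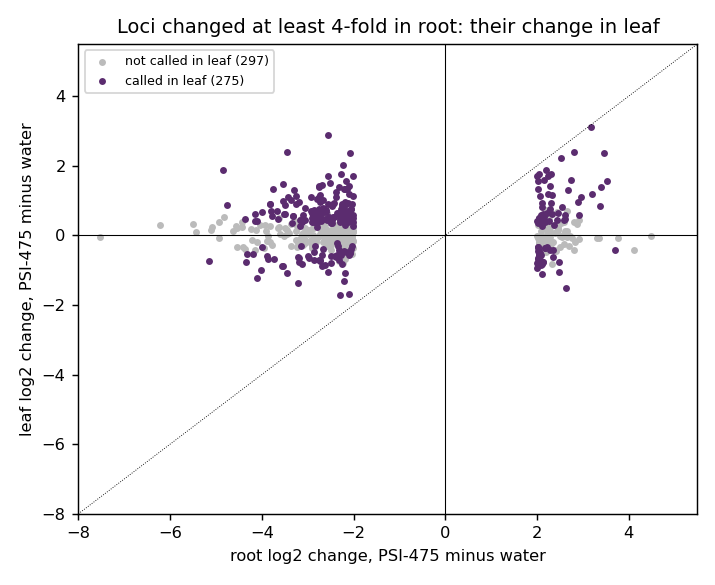
Log2 change in root (x axis) and in leaf (y axis), PSI-475 minus water, for the loci changed at least 4-fold in root that were also tested in leaf. Purple points were called in leaf (275 loci) and grey points were not (297 loci). Most points lie away from the dotted line of equal change, which the choice of loci by their root change favours. The median leaf change in either direction is 0.388.

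Transcripts of green tissue were looked for without gene names. The 114 loci with at least 100 FPKM in water-sprayed leaf and at most a hundredth of that level in water-sprayed root held 7.73% ± 0.138 of the fragments of water-sprayed leaf (SD, n = 3). They held 0.0205%, 0.0224% and 0.0212% of the fragments of the water roots and 0.0473%, 0.0348% and 0.0452% of those of the PSI-475 roots. They were higher in each PSI-475 library, at a level under 0.05% of any root library. The reverse set, 52 loci with at least 100 FPKM in water-sprayed root and at most a hundredth of that in water-sprayed leaf, held 2.49%, 2.46% and 2.42% of the fragments of the water roots and 1.63%, 1.56% and 1.62% of those of the PSI-475 roots. It was thus lower in each PSI-475 library. Both sets were chosen with the water root libraries, low in the first and high in the second, which favours these directions, so the shares are a description with no test. The part of either set in the other results was not tested.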

How the data were processed

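Libraries were prepared from 30 mg of ground tissue with a NEBNext Ultra kit, per the labels' protocols. Tools named in the submitters' processing notes are fastp, featureCounts and DESeq2. The sources used here give no aligner, build, annotation or strandedness. The deposited table holds FPKM made by the authors, 1 column per library. All 12 columns were matched to samples by name.

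Whole fragments, lengths and totals were recovered from the digits of the FPKM values, with 100% of values whole within 0.001. A common factor of all counts of a locus can be lost. The 6 root libraries were fitted as log2(FPKM + 1) in limma 3.58.1 (R 4.3.3, trend option, 2-sided test, Benjamini-Hochberg threshold 0.05), keeping loci whose root mean reached 1 FPKM. The interaction of spray and tissue used all 12 libraries. The planned named genes needed annotation. Without it, the rule names the 2 largest called rises and falls whose groups do not overlap and that hold at least 10 fragments on average in either group. The groups by leaf level, neighbour order, runs and leaf-dominant loci were chosen after seeing the data, and the comparison and the planned lists with earlier results of these data known. In 10 simulated sets of root fragments, with 17504 to 17529 loci tested, the fit found 67.9% of simulated 1.5-fold changes. It found 92.4% at 2-fold and 97.4% at 4-fold, and 6.48% of calls were false. Over the 10 sets only 670, 670 and 660 loci were changed at these sizes, in random directions. They were drawn from better-covered loci, and all loci were given the same spread. In the data 76.6% of loci were called and the median change depended on scaling, so these rates need not hold there. Pairs of root replicates differed by more than sampling noise, with chi-square values per degree of freedom from 2.21 to 6.40. Figures used matplotlib 3.10.9. Alternatives varied pseudocount, filter, scaling, weights, libraries fitted, replicate block and test. Binomial intervals cover counting error only.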

Additional observations from a re-analysis of the deposited data

Results flagged for a closer look

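At the 4 loci with the steepest root changes, the effect of PSI-475 differed between root and leaf in the interaction test over all 12 libraries. The root effect minus the leaf effect, on the log2 scale, was 4.92 for Solyc03g071857.1 (limma adjusted p = 1.12e-08) and 4.19 for Solyc03g071870.1 (limma adjusted p = 8.93e-09). It was -7.49 for Solyc04g051360.3 (limma adjusted p = 8.44e-10) and -6.53 for Solyc10g055740.2 (limma adjusted p = 5e-10). These loci were chosen for their change in root, which favours such a difference. Solyc04g051360.3 and Solyc10g055740.2 averaged only 1.15 and 0.974 FPKM in water-sprayed leaf. On the log2(FPKM + 1) scale they could hardly fall there, so their values largely repeat the root change. Across the table, the effect in root was the higher of the 2 at 9008 loci and the lower at 4014. With median-of-ratios scaling the balance turned, to 5476 and 5970.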

How the results depend on the processing

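The balance of rises and falls depended on scaling. The median log2 change of 0.28 was 0.31 with a pseudocount of 0.1, 0.099 without a filter, 0.12 with quantile normalization and 0.0035 with median-of-ratios scaling. It was 0.32 in limma-voom on recovered fragments, and 0.0029 in limma-voom with median-of-ratios scaling. Rises made up 68.0% of calls as deposited, 58.0% with quantile normalization and 49.4% with median-of-ratios scaling, where 135 loci were called in the opposite direction. Loci at least 2-fold higher numbered 1298 with median-of-ratios scaling, those at least 4-fold higher 126 against 248, and those at least 2-fold lower 2984 in limma-voom with that scaling. Loci with a higher effect in root in the interaction test then numbered 5476 against 9008, and those with a lower effect 5970 against 4014. The other counts of loci higher or lower in root, at any size or at least 2-fold, stayed within 1.5 times the reported ones, and without any 1 root library the rises ran from 8953 to 9317 and the falls from 4166 to 4447. The 4 named loci kept direction and call under every alternative. Limma-voom was chosen after seeing the data. The labels do not say what a replicate number shares, and no pairing of the root libraries by number was seen. Deviations of same-numbered libraries correlated at -0.00936 to 0.0426, and with a replicate block 9421 loci rose and 4448 fell. A pairing that left little trace would not show in this check. The planned gene lists gave no value under any setting, since no identifier could be matched. Low loci are limited by depth, with 3 to 11 fragments per library behind the lower group of 3 of the 4 named loci.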

Other observations

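Among loci with non-coding RNA identifiers rises in root were scarce under both scalings, and falls were about as frequent as over all loci. As deposited, 16 of the 163 tested rose (9.82%, beside 52.0% of all loci) and 41 fell (25.2%, beside 24.5%). With median-of-ratios scaling 9 rose (5.52%, beside 34.8%) and 60 fell (36.8%, beside 35.7%). Their median log2 change was -0.31 as deposited and -0.56 with that scaling, beside medians of 0.28 and 0.0035 for all loci. Calls in either direction as deposited covered 35.0% of them, beside 76.6% of all loci. Some are short with few fragments, such as a locus of 62 bases with 0 to 5 per root library. The part of length and depth in these shares was not tested. The 546 numbered loci had a median of 0.27, with 45.1% higher and 26.7% lower, near the shares of all loci.

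Loci detected under one spray only were few. Over all 35976 loci, 22 had 0 fragments in every PSI-475 root library and at least 10 in every water root library, and 10 had the reverse. The first had mean levels of 0.318 to 5.61 FPKM in the water roots, and 14 of them had a mean under 0.1 FPKM in leaf. The second had 0.762 to 9.99 FPKM in the PSI-475 roots, and 3 of them had a mean under 0.1 FPKM in leaf.

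Short loci changed at large size more often than long ones. Among the fifth of tested loci with recovered lengths under 786 bases, 4.22% fell and 2.27% rose at least 4-fold, and among the fifth of 2850 bases or more, 2.00% fell and 0.711% rose at least 4-fold. Shorter loci have fewer fragments at a given FPKM, and the part of that in the result was not tested.

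Outside chromosome 2, the densest stretch of 50 tested loci was on chromosome 4, with 9 falls of at least 4-fold. On the other chromosomes the densest such stretch held 4 to 7. For rises of at least 4-fold the densest stretch was on chromosome 7, with 6.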
